A study of Macaca mulatta with 28 samples.

Results

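In the ventral tegmental area (VTA), where the dopamine neurons that project to the ventral striatum have their cell bodies, some transcripts were listed at high counts in most macaques and at exactly 0 in others. The 150 most abundant transcripts of this kind are described here. They were chosen on the counts themselves: of 16885 named transcripts, 13769 had at least 5 rounded counts in at least 3 animals, 3606 of these (26.2%) were also at 0 in at least 5 of 28 animals, and the 150 with the highest mean rounded count were taken. The zeros and the mean count were therefore set by the choice and are given as a description, whereas group, drinking category and cohort played no part in it.

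Animals are named by their labels, as in Heavy-10211. RNA came from tissue punches of the VTA of 28 adult male wild-type rhesus macaques, 1 library per animal. The 17 drinkers had been induced to drink ethanol, had then drunk it voluntarily during long periods of daily access broken by forced abstinence, and were examined after a last abstinence that the titles give as 30 days. The 11 controls, which drank no ethanol, were calorically yoked or housing controls, and the labels do not say which animal was which. By the labels' drinking categories there were 9 very heavy, 5 heavy, 2 binge and 1 low drinkers, and by the study's source data 8 drinkers belonged to cohort 1 with 8 of the controls, the other 9 drinkers and 3 controls making up cohort 2. Low and binge drinkers were joined in tests because so few animals carried those labels.

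Total counts were 12303914 to 27338669 per animal, and mitochondrial transcripts took 36.4% to 60.6% of them. Tyrosine hydroxylase (TH), the rate-limiting enzyme of dopamine synthesis, and the dopamine transporter SLC6A3 were present in every animal, but TH ran from 83 to 18843 counts, and the summed level of 11 dopamine neuron markers from 33.8 to 2167 CPM (counts scaled to library size). The markers ran from 41.4 to 1591 CPM in drinkers and from 33.8 to 2167 in controls, so that their level varied widely within both groups. Fewer cells of a type and less RNA per cell cannot be told apart in bulk tissue. Of 6 astrocyte markers GFAP, SLC1A3 and GJA1 were at 0 in no animal, whereas SLC1A2 was listed at 0 in all 28, ALDH1L1 in 26 and AQP4 in 18.

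Most mammalian genes yield several transcripts through alternative promoters, splicing and polyadenylation. Salmon, the program that made these values, divides reads among annotated transcripts, so that reads which fit several isoforms are shared out by a statistical estimate and an isoform can receive no reads while the gene is expressed. The deposited table lists each gene symbol once, with 1 Ensembl transcript. A 0 is thus the estimate for 1 isoform and need not hold for the whole gene, and counts assigned to other isoforms are not analysed here.

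Few of the members' values lay between 0 and 100 counts. Over 150 transcripts and 28 animals, 1263 of 4200 values were 0 (30.1%), and 1262 of these were 0 before rounding. Of the other values only 8 lay between 1 and 9 counts, 144 between 10 and 49 and 215 between 50 and 99, whereas 2570 (87.5% of non-zero values) were 100 or more. In 115 members no animal lay between 0 and 10% of the member's median non-zero count, and these are called on/off here. In the other 35, called graded, at least 1 animal did. The number depends on the gap asked for, with 142 members on/off at a gap of 5% and 73 at 20%. The members' median non-zero counts ran from 119 to 1182. A zero of this kind was uncommon among abundant transcripts: of 7157 transcripts with a mean at least as high as the lowest member's, 92.2% were at 0 in no animal and 2.10% in at least 5.

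**Figure D1:**
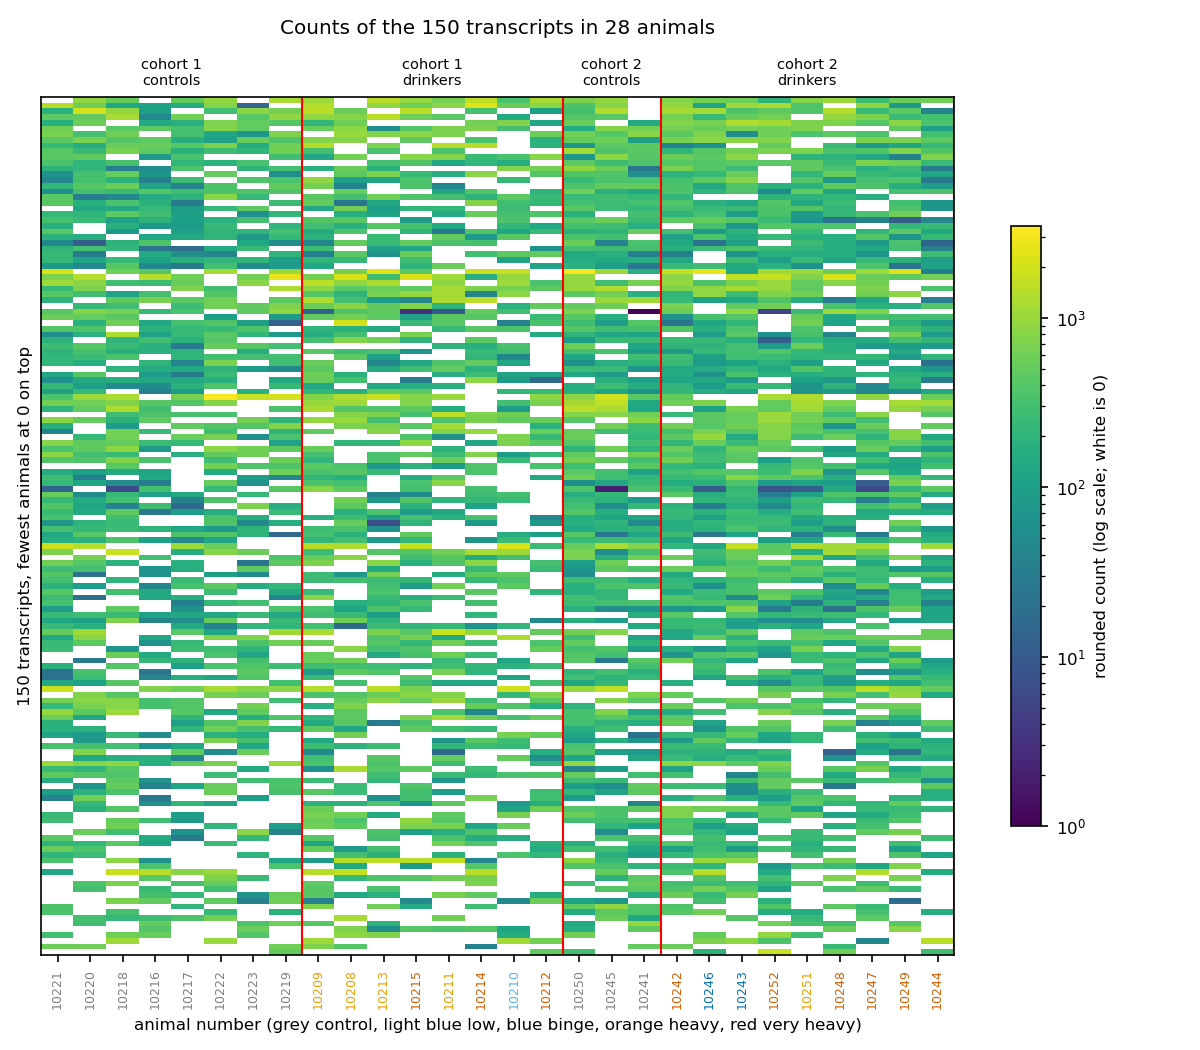
Rounded counts of the 150 transcripts (rows, those at 0 in the fewest animals on top) in 28 animals (columns, by cohort and group, labels coloured by drinking category), on a log colour scale with 0 in white. White cells are 30.1% of the panel, occur in every column and in no shared block of rows, and are more frequent in the 16 animals of cohort 1.

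The members were at 0 in 5 to 21 animals, with a median of 7. In all, 30 members were at 0 in 5 animals, 78 in 5 to 7, 57 in 8 to 13 and 15 in at least 14. ZFHX3, a large homeodomain and zinc finger transcription factor, was at 0 in 21 animals, and in the other 7 it lay at 197, 289, 296, 476, 499, 622 and 1751 counts. MYH7B, a myosin heavy chain, was at 0 in 19 animals and CTSB, the lysosomal protease cathepsin B, in 18, with a median of 940.5 counts in the 10 animals where it was present. The means at the lower limit of the choice were close together: ATG7 (133), AHNAK2 (132) and WDR41 (131) stood just inside, and ATG16L1, SMG5 and ZMYM3, each at 131, just outside.

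The 15 members with the highest mean counts came from different classes of protein. SLC25A6, a mitochondrial ADP/ATP carrier, had the highest mean (987), with 6 animals at 0, all of cohort 1, 1 at 34, and a highest value of 3323. HIPK2, a nuclear serine/threonine kinase, was at 0 in 2 drinkers and 4 controls and otherwise at 159 to 2704 counts. CHD8 and SETD2, a chromatin remodeller and the histone H3 lysine methyltransferase of transcribed genes, were at 0 in 8 and 10 animals, and their lowest non-zero values were 140 and 387. DNM1L, the dynamin-related GTPase of mitochondrial fission, was at 0 in 7 animals and otherwise at 143 or more. SCG3, a secretogranin of dense-core vesicles, was graded: 5 animals were at 0, and 1 animal had 15 counts against a median non-zero count of 783.

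IGBP1, a regulator of protein phosphatase 2A, was at 0 in 5 animals and at 209 or more in the rest. MDC1, a mediator of the DNA damage checkpoint, was at 0 in 6 animals, and CDK16, a neuronal cyclin-dependent kinase, also in 6, with lowest non-zero counts of 264 and 242. SASH1, a signalling scaffold, was at 0 in 14 animals and had the highest median non-zero count of all members, 1182. TCF12, a basic helix-loop-helix transcription factor, and MYO10, a myosin of filopodia, were each at 0 in 5 animals, and CLSTN3, a calsyntenin of the postsynaptic membrane, in 7. ADP/ATP carriers, RAP1A and HNRNPK have near-identical relatives or processed copies in primate genomes with which reads can be shared, so their values are uncertain on that account too. Sharing of reads was not tested for these or for other members.

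**Figure D2:**
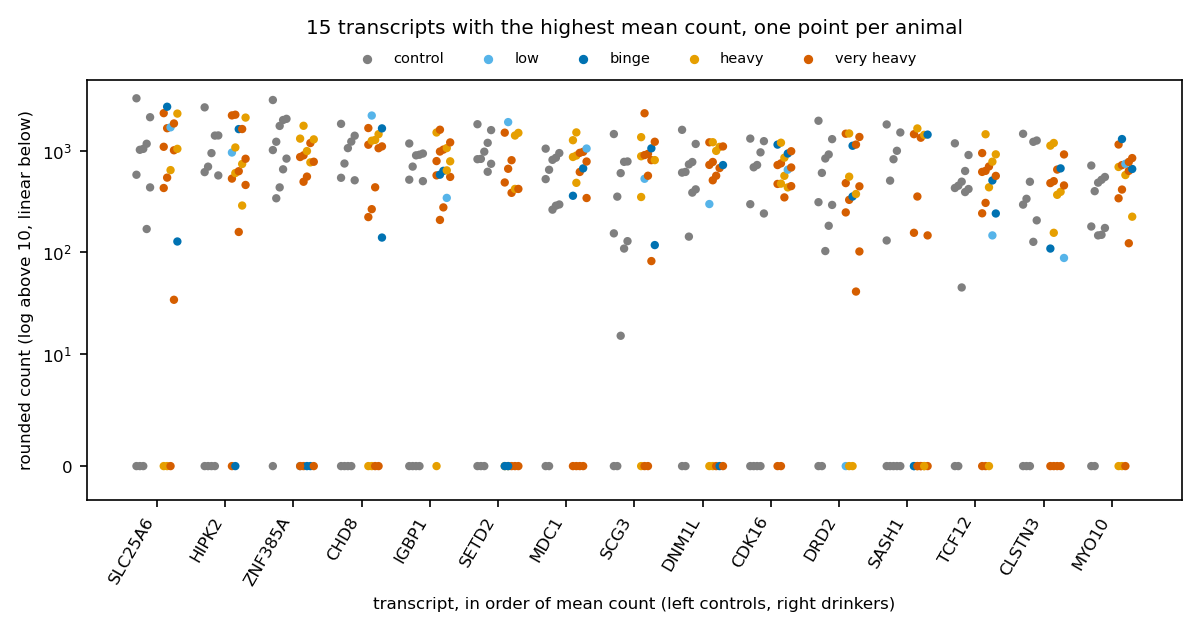
Rounded counts of the 15 members with the highest mean, 1 point per animal coloured by drinking category, with controls on the left and drinkers on the right of each name; the axis is logarithmic above 10 and linear below. Each transcript has points at 0 in both groups, and the span between 0 and about 100 counts holds few points.

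DRD2, the D2 dopamine receptor that acts as the autoreceptor of dopamine neurons, was the member tied most directly to the cells that define the region (annotated in RefSeq Mmul_10 on chromosome 14, 106549673 to 106616381, minus strand). In drinkers its lowest, median and highest counts were 0, 377 and 1494, and in controls 0, 313 and 1994, so the groups overlapped over nearly the whole range. It was at 0 in Low-10210, Heavy-10211, Heavy-10213, Control-10217 and Control-10241. The highest DRD2 counts were those of Control-10220 (1994, with 18843 TH counts), Heavy-10209 (1494, with 17780) and Very Heavy-10215 (1485, with 9525), and the lowest above 0 was that of Very Heavy-10244 (41, with 186). These animals with much DRD2 were rich in TH and the one with least was poor in it. The 5 animals at 0 had 83 to 2868 TH counts, below the 4991 to 18843 of the 10 animals with the highest DRD2 counts. The 13 animals with DRD2 counts in between had 92 to 3426 TH counts. The animals at 0 were not all among the poorest in dopamine neuron transcripts. Low-10210 had 2868 TH and 3568 SLC6A3 counts, Heavy-10213 had 2529 and 2614, and Control-10241 had 2447 and 1617. Control-10216, with 92 TH and 80 SLC6A3 counts, still had 103 DRD2 counts. Control-10217 and Heavy-10211 were poor in these transcripts, with 83 and 123 TH counts. DRD2 carries 1 transcript in the RefSeq annotation.

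**Figure D3:**
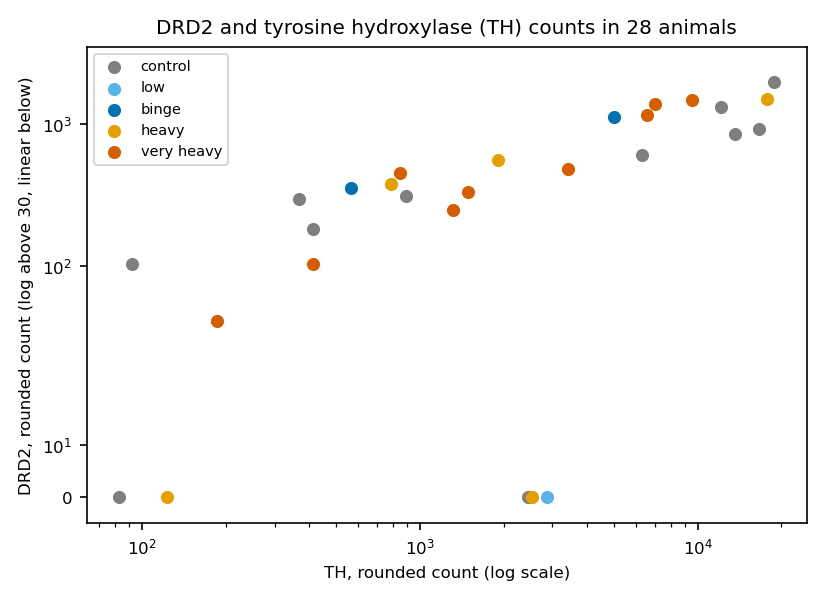
DRD2 against tyrosine hydroxylase (TH) in 28 animals, as rounded counts, coloured by drinking category; both axes are logarithmic, with DRD2 linear below 30. Of the 5 animals with DRD2 at 0, 3 had 2447 to 2868 TH counts, between the 1912 and 3426 TH counts of Heavy-10208 and Very Heavy-10252, which had 559 and 483 DRD2 counts.

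Other members belonged to transmitter systems of the midbrain. SLC17A8 (VGLUT3), a vesicular glutamate transporter, lay at 0, 83.0 and 688 counts (lowest, median, highest) in drinkers and at 60, 182 and 1279 in controls. It was at 0 in 6 drinkers of the very heavy, heavy and low categories and in no control, while the non-zero values of both groups overlapped. PVALB, the calcium buffer of fast-spiking inhibitory neurons, lay at 0, 121 and 1448 counts in drinkers and at 73, 444 and 710 in controls. It was at 0 in 5 drinkers, and Heavy-10209, Heavy-10211 and Very Heavy-10214 had the highest counts of all, at 1410, 1448 and 1442 respectively. CHRNA2, a nicotinic receptor subunit, was at 0 in 5 drinkers and 1 control, and reached 2054 counts in Heavy-10208. SLC6A9, the glycine transporter GlyT1, was at 0 in 3 drinkers and 3 controls. NOS1, the neuronal nitric oxide synthase, was at 0 in 7 animals, UCN, the stress peptide urocortin, in 6, and the GABA-A receptor subunit GABRA3 and the sodium channel subunit SCN2A in 7 and 6. GAD1, the enzyme of GABA synthesis, and SLC17A6 (VGLUT2) were at 0 in no animal, with lowest counts of 1156 and 677.

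Whether drinkers and controls differed in which members were off was tested for each of the 3606 transcripts with a two-sided Fisher's exact test of the animals at 0, adjusted by Benjamini-Hochberg over all of them. No member and no other transcript passed at an adjusted p of 0.05 (0% of 3606). At an unadjusted p of 0.05 no member passed, against 2.47% of the 3606. These shares are not on a like footing, because few zeros limit how low p can go. Zeros in drinkers alone gave a Fisher's exact p of 0.125 with 5 animals at 0 (LYST) and 0.0549 with 6 (SLC17A8). Of the members 30 were at 0 in 5 animals, and the other transcripts of the 3606 had more zeros. The lowest value among members was that of SLC17A8 (35.3% of drinkers and 0% of controls at 0, Fisher's exact p = 0.0549, adjusted p = 1.00). IGBP1 was at 0 in 5.88% of drinkers and 36.4% of controls (exact p = 0.0618), and STS, the steroid sulfatase, in 11.8% and 45.5% (exact p = 0.0764). BDP1, a subunit of the RNA polymerase III initiation factor, was at 0 in 52.9% and 18.2% (exact p = 0.115). ATM, the kinase of the DNA double-strand break response, was at 0 in 70.6% and 36.4%, and FAM169A in 29.4% and 63.6% (exact p = 0.121 for each). The adjusted p was 1.00 for all of these, so that none of the differences passed.

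Zeros were found in both groups for 143 of the 150 members and in drinkers alone for 7, namely SLC17A8, PVALB, CHD6, LYST, CARM1, MAP4K3 and ATG13. That is 4.67% of members, against 1.94% of the 3606. The other transcripts of the 3606 had 52.1% of their values at 0 and the members 30.1%, and the part of this difference in the shares was not tested. No member had its zeros in controls alone. A larger share of drinkers than of controls was at 0 in 67 members (44.7%), and in 59.1% of the 3606.

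Counts were then compared over all 13769 transcripts with edgeR's quasi-likelihood test. No transcript passed an adjusted p of 0.05 between drinkers and controls (0% of 13769), and 1 member passed an unadjusted 0.05, against 4.57% of all transcripts. This member was PTPRK, a receptor protein tyrosine phosphatase of cell contacts, with 0, 261 and 639 counts (lowest, median, highest) in drinkers and 0, 21 and 390 in controls. Its log2 fold change, drinkers over controls, was 2.25 (SE 0.95, edgeR unadjusted p = 0.0254, adjusted p = 1.00), and the 2 groups overlapped, with 3 drinkers and 5 controls at 0. Among the next members by p were COL11A2, a fibrillar collagen chain (log2 fold change -1.47, SE 1.04), the non-muscle myosin MYH10 (1.50, SE 1.11), the salt-inducible kinase SIK3 (-1.25, SE 0.97) and the scaffold protein AHNAK2 (-1.55, SE 1.21), all with an edgeR adjusted p of 1.00. The median log2 fold change of the members was 0.18 and that of all transcripts 0.00. The standard errors of these 5 members ran from 0.95 to 1.21 on the log2 scale, so that differences of about 2-fold lay within the error.

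The drinking category gave no member that passed either. Over control, low or binge, heavy and very heavy animals (edgeR quasi-likelihood F test with 3 degrees of freedom) no transcript had an adjusted p under 0.05 (0% of 13769), and 3 members had an unadjusted p under 0.05, against 5.67% of all transcripts. ZNF385A, a zinc finger protein that binds RNA, stood first (chromosome 11, 53984345 to 54008060, minus strand). It was at 0 in Low-10210, Binge-10243, Binge-10246, Very Heavy-10214, Very Heavy-10248, Very Heavy-10249 and Control-10216, and at 774 to 1778 in the 5 heavy drinkers (edgeR unadjusted p = 0.00228, adjusted p = 0.760). Its edgeR unadjusted p was 0.0111 to 0.0124 without any 1 of Low-10210, Binge-10243 and Binge-10246, and 0.00274 to 0.00311 without any 1 of the heavy drinkers. All 3 low or binge drinkers were thus at 0, while very heavy drinkers and controls held both states. MYH10 was also at 0 in all 3 low or binge drinkers (edgeR unadjusted p = 0.0219, adjusted p = 0.785), and ZFHX3 reached its highest count, 1751, in Very Heavy-10252 (edgeR unadjusted p = 0.0425, adjusted p = 0.849). Without any 1 of the same 3 low or binge drinkers the edgeR unadjusted p of MYH10 was 0.0535 to 0.0572, without any 1 of the 5 heavy drinkers that of ZFHX3 was 0.0657 to 0.0672, and with cohort as a covariate that of ZFHX3 was 0.0734. PVALB, COL11A2 and SIPA1L2, a regulator of Rap GTPases, followed, with edgeR adjusted p-values of 0.951, 0.986 and 0.986. The edgeR unadjusted p of PVALB was 0.0923, and it ran from 0.0279 (without Binge-10246) to 0.240 (without Binge-10243) when single low, binge or heavy drinkers were left out, with values under 0.05 also without Heavy-10208 (0.0418) and Heavy-10251 (0.0431). With cohort as a covariate it was 0.219. Very heavy drinkers against controls gave 0 members and 0 other transcripts at an adjusted p of 0.05 (0% of 13769), and 0 members at an unadjusted 0.05, against 4.47% of all transcripts.

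The zeros were more numerous in cohort 1 than in cohort 2. The mean number of members at 0 per animal was 53.8 ± 12.3 (SD, n = 16) in cohort 1 and 33.6 ± 7.42 (SD, n = 12) in cohort 2. By group, drinkers had 45.7 ± 15.6 members at 0 (SD, n = 17), which differed from the 44.2 ± 13.2 of controls (SD, n = 11) by less than either spread. More of the controls (8 of 11) than of the drinkers (8 of 17) belonged to cohort 1. Within cohort 1, drinkers had 58.1 ± 13 (SD, n = 8, 40 to 79) members at 0 and controls 49.4 ± 10.6 (SD, n = 8, 31 to 64), a difference of 8.75. Within cohort 2, drinkers had 34.7 ± 7.09 (SD, n = 9, 27 to 47) and controls 30.3 ± 8.96 (SD, n = 3, 20 to 36). The means of drinkers were higher in both cohorts, by less than the spread between animals. The most members at 0 were found in Very Heavy-10212 (79) and Low-10210 (73), and the fewest in Control-10250 (20). The categories overlapped, with 27 to 79 members at 0 in very heavy, 32 to 58 in heavy and 27 to 73 in low or binge drinkers.

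The members shared this with the rest of the table. Of the 13769 transcripts, 1537 to 3296 per animal were at 0 in cohort 1 and 1393 to 2009 in cohort 2, and the mean was higher by 650.1 in cohort 1 (two-sided permutation test, 100000 permutations, p = 4.00e-05, adjusted p = 2.40e-04 over 6 comparisons, all added after the data were seen). The cohorts differ in their share of drinkers. Among drinkers alone the difference was 949 (exact permutation p = 8.23e-05, adjusted p = 2.47e-04), and among controls alone 414 (exact permutation p = 0.0242, adjusted p = 0.0364). Whether these 2 differences differ was not tested. Within cohort 1, drinkers had 2589 ± 384 (SD, n = 8) transcripts at 0 and controls 1928 ± 221 (SD, n = 8), with an exact permutation p of 4.66e-04 (adjusted p = 9.32e-04). Within cohort 2 the means were 1639.9 and 1513 (exact permutation p = 0.273). Total counts were 21497257 ± 4519857 (SD, n = 16) in cohort 1 and 21868688 ± 2343937 (SD, n = 12) in cohort 2 (permutation p = 0.802), a difference smaller than the spread, and the mitochondrial share was 48.7% and 48.8%. Other steps in which the cohorts may differ were not tested.

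**Figure D4:**
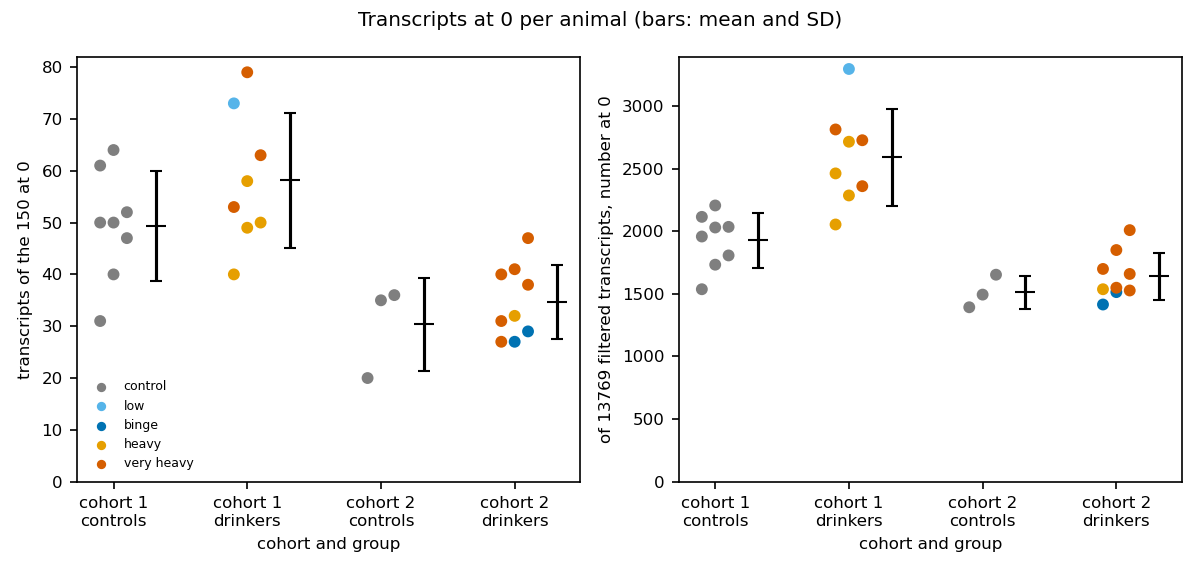
Number of the 150 members at 0 (left) and of all 13769 filtered transcripts at 0 (right) in each animal, by cohort and group, coloured by drinking category, with the mean and SD beside the points. Cohort 2 lies lower in both panels, and in cohort 1 the drinkers overlap the controls for the 150 (40 to 79 against 31 to 64).

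Member by member, a larger share of animals was at 0 in cohort 1 for 114 of the 150 (76.0%) and in cohort 2 for 32, which is close to the 73.0% of all 3606 with more zeros in cohort 1. Fisher's exact test by cohort gave no member and no other transcript with an adjusted p under 0.05 (0% of 3606). At an unadjusted 0.05 it gave 15 of the 150 members, against 10.1% of the 3606. PSMA1, a core subunit of the proteasome, was at 0 in 11 of 16 animals of cohort 1 and 1 of 12 of cohort 2 (exact p = 0.00205, adjusted p = 0.262). LRRK2, the kinase mutated in a familial form of Parkinson's disease, was at 0 in 8 animals of cohort 1 and in none of cohort 2 (exact p = 0.00838, adjusted p = 0.280). ZNF292 and TNC, a zinc finger protein and the matrix protein tenascin C, had the same split, while EPS8, an actin regulator, had 11 and 2 animals at 0 (exact p = 0.00932) and ATP9A, a phospholipid flippase, 7 and 0 (exact p = 0.0103). Zeros fell in cohort 1 alone for 12 of the 150 members, against 5.55% of the 3606. They fell in cohort 2 alone for no member and 1 of the 3606. Cohort 1 is the larger, which makes zeros in it alone easier to reach. EXPH5 went the other way, with 2 animals at 0 in cohort 1 and 7 in cohort 2 (exact p = 0.0166; named after its values were seen).

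In edgeR, with group as a covariate, 0 members and 6 other transcripts (0.0436% of 13769) had an adjusted p under 0.05 between cohorts, and 2 members an unadjusted p under 0.05, against 9.80% of all transcripts. SVEP1, an extracellular matrix protein, was the lower of them (edgeR unadjusted p = 8.61e-04, adjusted p = 0.157), and CHD6, a chromatin remodeller, the other (log2 fold change of cohort 2 over cohort 1 1.61, SE 0.73, edgeR adjusted p = 0.459). SVEP1 was at 0 in all 8 drinkers of cohort 1, in 4 of its 8 controls, in 3 of 9 drinkers of cohort 2 and in none of its 3 controls, and lay at 153 to 591 counts elsewhere. The difference between drinkers and controls was tested for a difference between the cohorts by an interaction term: 0 members and 2 other transcripts (0.0145% of 13769) had an adjusted p under 0.05, and SVEP1 alone among members an unadjusted p under 0.05, against 9.62% of all transcripts. Within cohort 1, a larger share of drinkers than of controls was at 0 for 68 members (45.3%), against 57.8% of the 3606, and within cohort 2 for 79 members (52.7%), against 46.8%.

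The members' genes had more annotated isoforms than those of filtered transcripts as a whole. In the RefSeq annotation of Mmul_10, the macaque genome build the authors used, 145 of the 150 symbols were found. SLC25A6, SCN2A, MARCHF7, NPAT and BTBD8 were not. The median member gene had 5 transcripts (quartiles 2 and 8) and 20 exons, and its longest transcript was 5521 bases, whereas the medians over all filtered transcripts were 3 transcripts, 9 exons and 3226 bases. At least 5 transcripts were annotated for 51.0% of the members and 27.3% of all filtered transcripts, and a single transcript for 11.0% and 28.2%. In the members' genes 71.6% of the exonic bases (median) lay in every annotated transcript, against 80.0%, so that less of the sequence was shared among isoforms in full.

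Among the abundant transcripts the share that belonged to the 150 was 0.830% (16 of 1928) where the gene had 1 RefSeq transcript, 1.50% where it had 2, 1.88% where it had 3 to 4, 3.34% where it had 5 to 8, 5.87% (28 of 477) where it had 9 to 16 and 4.40% (7 of 159) where it had 17 or more. PTPRK has 20 annotated transcripts, HNRNPK 15, CHRNA2 12 and ATM 8. The 16 members with a single one include DRD2, SLC17A8 and SVEP1, for which the RefSeq annotation offers no other isoform. The Ensembl annotation behind the table was not used here, and the 2 annotations can differ in number of isoforms. These shares are a description, since gene length, exon number and isoform number go together.

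**Figure D5:**
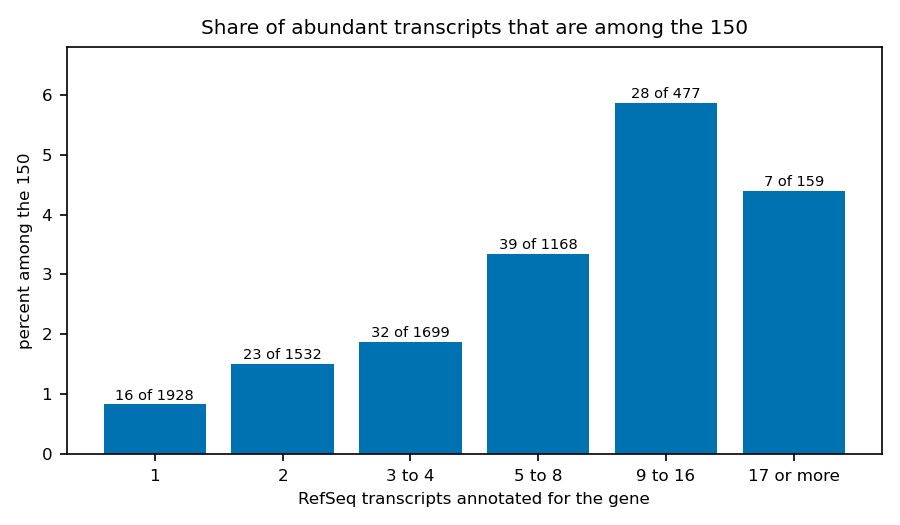
Share (percent) of transcripts with a mean count at least that of the lowest member that are among the 150, by the number of transcripts RefSeq annotates for the gene, with the numbers above the bars. The share was 0.830% at 1 transcript and 5.87% at 9 to 16.

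The members did not switch as 1 block. Of 11175 pairs, none had the same state in all 28 animals and none the opposite state in all. The median phi coefficient (a correlation of the on/off states, described over 28 animals that share cohort and library effects) was 0.0342, 178 pairs were above 0.5 and 12 below -0.5. The closest pairs agreed in 26 of 28 animals: CHD6 with ATP9A, MTIF2, a mitochondrial translation initiation factor, with INSIG2, a sterol sensor of the endoplasmic reticulum, PIK3CD, a phosphoinositide 3-kinase catalytic subunit, with MAP4K3, and RAP1A, a small GTPase, with INPP5D, a phosphoinositide phosphatase of immune cells. CHD6 and ATP9A were off together in 5 cohort 1 drinkers. The most opposite pair by phi was CHRNA2 and FOCAD, never off in the same animal and in opposite states in 21 of 28 (phi -0.561). LIMS1 and PTPRM followed, with 10 animals each at 0 and none in common.

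Members whose symbols share a stem were compared in 10 pairs, with phi from -0.243 to 0.438. The Ras exchange factors SOS1 and SOS2 were at 0 in 6 and 5 animals and never together, HIPK2 and HIPK3 shared 1 animal at 0, and CHD6 and CHD8 also 1. The autophagy factors ATG7 and ATG13 shared 2 of their 9 and 5 animals at 0. C9orf72 and WDR41, which are subunits of 1 complex with SMCR8 (a pair named after its values were seen), were at 0 in 5 and 6 animals and shared 2. VPS13A and VPS41, a lipid transfer protein and a tether of late endosomes and lysosomes that are related in name alone, had the highest phi and shared 3 of their 5 and 6 animals at 0 (phi 0.438). The next was that of MYH10 and MYH7B (0.240).

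No transcript of another gene was found that took the place of a member in every animal. Other isoforms of a member's own gene were out of reach, because each gene symbol was listed once. For each member the 3606 transcripts at 0 in at least 5 animals were searched for one that was on where the member was off and the reverse, and none was opposite in all 28. The closest were opposite in all but 1 animal, namely TRMT44 for DHDDS and PABIR2 for SCG3, but those partners were at 0 in 24 animals. HABP4, at 0 in 16 animals, and GGT5, at 0 in 12, were opposite in all but 2. Each of these is the best match of many candidates. Over the 13768 other filtered transcripts the lowest Spearman's rho per member had a median of -0.649, and the lowest of all was -0.844 (RAB11A, a GTPase of recycling endosomes, with CARHSP1), as the extreme of many values over 28 animals. Gene neighbours within 100 kb gave 378 pairs for 121 members, with a median rho of 0.0607 and a range from -0.534 (COL5A2 with COL3A1, neighbouring collagen genes) to 0.606 (CYB5R3 with POLDIP3). The 20 pairs of overlapping genes had rho from -0.343 to 0.435. No strand setting is given in the sources used here, so that reads of overlapping genes cannot be told apart.

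MAP3K5 (ASK1), the kinase at the head of the stress-activated JNK and p38 cascade, was also at 0 in many animals, at a lower level. With a mean of 58.2 counts it ranked 412 of the 3606 and is not among the 150. It was at 0 in 19 animals, and it was graded, since its lowest value above 0 lay under 10% of its median non-zero count of 145. The other 9 had 6 (Control-10222), 18, 21, 31, 145, 183, 290, 393 and 543 counts (Heavy-10211). Of the 17 drinkers 8 had counts, in every drinking category but low, and of the 11 controls 1. The share at 0 was 52.9% of drinkers and 90.9% of controls (Fisher's exact p = 0.0491, adjusted over the 3606 p = 1.00). In edgeR the log2 fold change was 7.25 (SE 1.69, unadjusted p = 1.80e-04, adjusted p = 0.517), and under the alternatives 3.30 (limma-voom) to 8.55 (cohort 2 alone) with adjusted p-values of 0.187 to 1.00. This is a fitted value that rests on 6 counts in all controls together. Since MAP3K5 was picked out with its low p known, these values are a description. Within cohort 1 alone 5 of 8 drinkers and 7 of 8 controls were at 0 (exact p = 0.569), and leaving out single animals gave exact p-values from 0.0119 to 0.0912, with 10 of 28 under 0.05. Leaving out any of the 10 controls at 0 or of the 8 drinkers with counts gave a p of 0.0899 or 0.0912, and leaving out Control-10222 the lowest.

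The transcripts most like MAP3K5 over the 28 animals by Spearman's rho of CPM were SPRYD3 (0.707), PPA2 (0.654), MAGT1 (0.633), IL15 (0.629) and CA13 (0.622), and those with the lowest rho were FAM167B (-0.683), TMEM88 (-0.631), KL (-0.622), SLC39A10 (-0.587) and SHTN1 (-0.585). These are the extremes of 13768 candidates, with MAP3K5 at 0 in 19 animals. The highest rho of each of the 150 had a median of 0.714. SPRYD3 itself was at 0 in no animal. Other transcripts of its kinase cascade also had zeros. Of the 36 other filtered members of the mitogen-activated protein kinase cascade 12 (33.3%) were at 0 in at least 5 animals, against 26.2% of all filtered transcripts, and none was among the 150. The list did not hold the upstream MAP4K kinases, of which MAP4K3 is one of the 150. BRAF was at 0 in 15 animals, MAP3K9 in 13 and MAPK4 in 12, while MAP2K1, MAP2K4 and MAPK3 were at 0 in none, with means of 2846, 3452 and 4663 counts. Of 13 filtered binding partners and regulators of MAP3K5, such as the mitochondrial thioredoxin TXN2 and the 14-3-3 proteins, none was at 0 in 5 or more animals.

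Lists made from the beginnings of gene symbols were counted, with 150 of 13769 filtered transcripts as the background. Such lists miss members of like function with other symbols, such as the chromatin enzymes SETD2, EP300, CARM1 and NSD3 and the adhesion phosphatases PTPRK and PTPRM, which are also among the 150. There were 3 of 345 zinc finger genes (ZNF804A, ZNF385A and ZNF292, 0.870%), 4 of 279 solute carriers (SLC41A3, SLC6A9, SLC17A8 and SLC25A6, 1.43%), 1 of 80 potassium channel genes (KCNS3), 2 of 191 ubiquitin enzymes (RNF44 and TRIM38), 2 of 135 splicing and RNA-binding factors (SRSF4 and HNRNPK), 1 of 56 kinesins and dyneins (KIFC3), 2 of 73 listed chromatin genes (CHD8 and CHD6, 2.74%) and 1 of 76 listed adhesion genes (CNTNAP4). Ribosomal proteins and respiratory chain subunits gave none of 80 and 82. They were also uncommon among the 3606, with 6 (7.50%) and 5 (6.10%) at 0 in at least 5 animals. No marker of the listed cell types was among the 150, and few were among the 3606. These were NR4A2 and ALDH1A1 of 11 dopamine neuron markers (18.2%, against 26.2% of all filtered transcripts), CLDN11 of 7 filtered oligodendrocyte markers and AQP4 of 4 filtered astrocyte markers.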

How the data were processed

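Bulk RNA of 28 VTA punches was sequenced, 1 library per animal. Per the submitters' processing notes, the authors trimmed reads with Trim Galore 0.6.7 and estimated counts with Salmon 1.9.0, and the deposited table holds estimated counts without normalization, 1 Ensembl transcript per gene symbol. How that transcript was kept is not given in the sources used here. Of 16886 entries 1 had no symbol and was left out. Estimated counts were rounded to whole numbers. Groups and categories came from the labels, and cohorts from the study's source data.

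Here, edgeR 4.0.16 (TMM, quasi-likelihood, Benjamini-Hochberg at 0.05; R 4.3.3) was run on 13769 transcripts, with standard errors derived from each log2 fold change and its F statistic. Off states were compared by Fisher's exact test over 3606 transcripts (scipy 1.17.1, Python 3.11.15). Both were checked on simulated data. Alternatives used DESeq2 1.42.0, limma 3.58.1 (voom), other definitions of off, and single cohorts. Named genes were MAP3K5, the 15 members with the highest means, 3 on either side of rank 150, the 6 with the lowest p in each of 4 tests, members of fixed lists and the pairs closest in state. Some items that this rule names are not reported here. The members and lists were chosen with earlier results of these data known. Genes that are discussed for their transmitter role, and the members at 0 in the most animals, were named after their values were seen. Counts are not per length, so levels of different genes are not compared. The number of animals limits precision, and all p-values treat animals, with 1 library each, as the units.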

Additional observations from a re-analysis of the deposited data

Results flagged for a closer look

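In 2 sets of animals a MAP3K5 count stood apart from the rest by its gap to the nearest animal relative to the range. Control-10222, with 6 counts, was the only one of the 8 controls of cohort 1 above 0. Heavy-10211, with 543 counts, stood above the other 4 heavy drinkers, of which 3 were at 0 and 1 had 18. In a transcript that is at 0 in most animals such gaps follow easily. With all but 1 animal at 0, any count in that animal gives a gap as wide as the range. The usual error rate of such a check does not hold for these counts, and both ends of each set were looked at. The number of members at 0 and the number of all filtered transcripts at 0 gave no such animal in cohort 1 drinkers, cohort 1 controls, cohort 2 drinkers, heavy or very heavy drinkers.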

How the results depend on the processing

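No member had an adjusted p under 0.05 in any of the comparisons under any alternative that was run. Over all transcripts, drinkers against controls gave 0 calls by edgeR, 11 by DESeq2 and 5 in cohort 1 alone, and the cohort comparison 6 calls, 104 among drinkers alone and 3 with DESeq2 size factors. Leaving out each low or binge and each heavy drinker in turn (added after the data were seen) gave 0 to 0 calls by category. The off state of MAP3K5 by group, with an exact p of 0.0491, had 0.569 in cohort 1 alone, 0.127 for very heavy drinkers against controls, and 0.0119 to 0.0912 without single animals. Members called on/off were 115 at a gap of 10%, 142 at 5% and 73 at 20%. The excess of filtered transcripts at 0 in drinkers was 272 over all animals (permutation p = 0.149) and 662 in cohort 1 alone (exact p = 4.66e-04), a test added after the data were seen. Members with an unadjusted p under 0.05 by off state were 15 between cohorts, 23 (15.3%) among drinkers alone, where 14.5% of the 3606 passed, and 0 among controls alone, where 0.555% passed. Between groups they were 0, and 3 (2.00%) in cohort 1 alone, where 3.83% of the 3606 passed. In edgeR it was 1 between groups, PTPRK, higher in drinkers. By limma-voom they were 7 (4.67%, against 5.32% of all transcripts), all lower in drinkers, so that PTPRK (log2 fold change 3.74 there) was not among them. Of 276 alternative values 242 stayed on the same side of the adjusted threshold with no change of sign or, for counts and differences without a test, within 1.5 times or 1 SD, 13 moved, 20 weakened, 1 strengthened and none reversed. Among the 242, the unadjusted p of MYH10, ZFHX3 and PVALB by category crossed 0.05 in some alternatives, and that of EPS8 by cohort was 0.00932 and 0.153 among drinkers alone. The causes were not tested. No paired analysis was possible because the labels do not say which drinker each yoked control was tied to, and the animal numbers do not link animals. Salmon's estimates carry an uncertainty that the table does not give.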
